A study of Homo sapiens with 8 samples.

Results

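The lung cancer lines HCC827 and A549 were compared in 2D culture by setting the 2 HCC827 arrays of cells grown on plastic against the 2 A549 arrays of cells grown the same way, which are 4 of the 8 arrays of the series. Each line had 1 array without inhibitor and 1 array from cells given gefitinib at 1 µM, which blocks the kinase of EGFR. All 4 cultures started from 200000 cells in dishes of 21 cm2 and were grown for 7 days, and the labels do not plainly state how long gefitinib was present in 2D. Both are established human lung adenocarcinoma lines, and the labels give HCC827, but not A549, an activating EGFR mutation. The other 4 arrays held the same lines and treatments on a 3D collagen scaffold, grown for 14 days from 100000 cells, and served to set the 2D difference beside the 3D one and to share the estimate of spread. No condition was repeated, so the 2 arrays of a line are not replicates: they differ in treatment, and every test measures the line difference against the distance between the control and gefitinib arrays. An exact permutation test of 2 arrays against 2 cannot give a two-sided p below 0.333, so p-values come from a limma model fitted across all genes.

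EGFR is a receptor kinase of epithelial cells that signals through ERK, whose output genes include feedback inhibitors such as DUSP6. Activating EGFR mutations make lung adenocarcinomas depend on it, and HCC827 is widely used as an example that also carries extra copies of the gene. A549 is known to carry inactivating mutations of KEAP1, the inhibitor of the antioxidant transcription factor NRF2, and of STK11, which encodes the kinase LKB1, and to have lost the cell cycle inhibitor locus CDKN2A. NKX2-1 is the transcription factor that defines the distal lung epithelial lineage. These are background; the arrays measured RNA and not mutations or gene copies.

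The deposited values were log2 signals of 49495 probe sets, summarised here to 18244 genes by the probe set with the highest mean, of which 11926 lay above the array median on at least 2 arrays and were tested. The 4 array medians in 2D ran from 7.31 to 7.33, and the median of the background probe sets from 5.99 to 6.07. The A549 arrays were close to each other (r = 0.996 across probe sets, 3 tested genes 2-fold or more apart). The HCC827 arrays were less so (r = 0.977, 474 genes), and arrays of different lines gave r from 0.898 to 0.907, with 1941 to 2197 genes 2-fold or more apart. Probe sets are not independent replicates. The HCC827 labels go against a marker of the treatment: DUSP6 read 6.57 in the HCC827 2D array labelled control and 10.21 in that labelled gefitinib, whereas in 3D it read 11.48 in the control and 8.16 in the gefitinib array. The 2 HCC827 2D labels may be exchanged. The mean over both arrays, and so every line difference below, does not depend on which label is right, and the arrays are named by their labels.

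The list of lung epithelial markers also holds keratins, EPCAM and MUC1. On the A549 arrays 8 of 10 stood above the array median, and on the HCC827 arrays 10 and 9 of 10. Those below it on both A549 arrays were the lung lineage genes NKX2-1 (6.43 and 6.47) and SFTA2 (6.76 and 6.61). Most markers of other cell types were low. Of 7 endothelial markers 0 stood above the median on any 2D array, and of 9 fibroblast markers only LUM did, on 3 of the 4 arrays. The leukocyte list had 3 to 5 of 12 markers above the median, with CD68 or TYROBP the highest, and the squamous list 1 or 2 of 7. CD68 reached 9.93 on the HCC827 array labelled gefitinib. Of 7 tested leukocyte markers CORO1A was called higher in HCC827 (1.15) and CD14 (-1.81) and LYZ (-0.97) lower. CORO1A lost the call under 9 of 17 alternatives. LUM, a collagen-binding proteoglycan, was the called fibroblast marker, at 7.66 and 6.90 in A549 and 9.93 and 8.47 in HCC827 (difference 1.92 ± 0.52, limma adjusted p = 0.0224). The part of other cells in any result was not tested.

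In every pair of values below the control-labelled array comes first and the gefitinib-labelled array second. Differences are HCC827 minus A549, as log2 differences of the 2-array means with the standard error of the fit; adjusted p-values are limma's with Benjamini-Hochberg adjustment over the 11926 genes, and a gene past adjusted p 0.05 is called higher or lower in HCC827. By this rule 4588 genes were called, 38.5% of those tested: 2290 higher (19.2%) and 2298 lower (19.3%). Both HCC827 arrays lay on the same side of both A549 arrays for 8587 genes, 72.0% of those tested, with 4293 higher (36.0%) and 4294 lower (36.0%). All 4588 called genes were among these, and 3999 genes without overlap were not called. Of the called genes, 892 were at least 2-fold higher and 925 at least 2-fold lower, and 82 and 124 were at least 8-fold apart. Over the tested genes the median size of the line difference was 0.35, against a median distance of 0.19 between the HCC827 arrays and 0.11 between the A549 arrays. Without the A549 2D control array the count of called genes was 2637, and without the A549 2D gefitinib array 2700.

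The largest differences were of genes low in one line and high in the other. The deposited values hold no detection call, so where the low line reads close to the background probe sets the difference is the measured one, no fold is given, and an order by size is an order of measured differences only. CDKN2A, which encodes the cell cycle inhibitor p16, stood at 6.85 and 6.52 in A549 and at 12.79 and 12.45 in HCC827, a difference of 5.94 ± 0.18 (adjusted p = 1.05e-06). LCP1, an actin-bundling protein typical of leukocytes, stood at 6.58 and 6.50 in A549 and at 12.49 and 12.27 in HCC827 (5.84 ± 0.18). Both A549 values of these genes were close to the background probe sets, and the groups lay far apart. IFI27, an interferon-induced protein, followed at 5.34 ± 0.33, then the matricellular protein CCN1 at 5.16 ± 0.37, F3 (tissue factor) at 5.12 ± 0.18 and the lung-specific secreted protein SFTA2 at 5.04 ± 0.18. The rest of the 15 largest were CTHRC1 (4.95), FGF13 (4.86), NRK (4.85), ALDH1A3 (4.67), CLDN7 (4.67), BCAT1 (4.64), COXFA4L3 (4.62), NKX2-1 (4.60) and ADGRF1 (4.58).

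**Figure D1:**
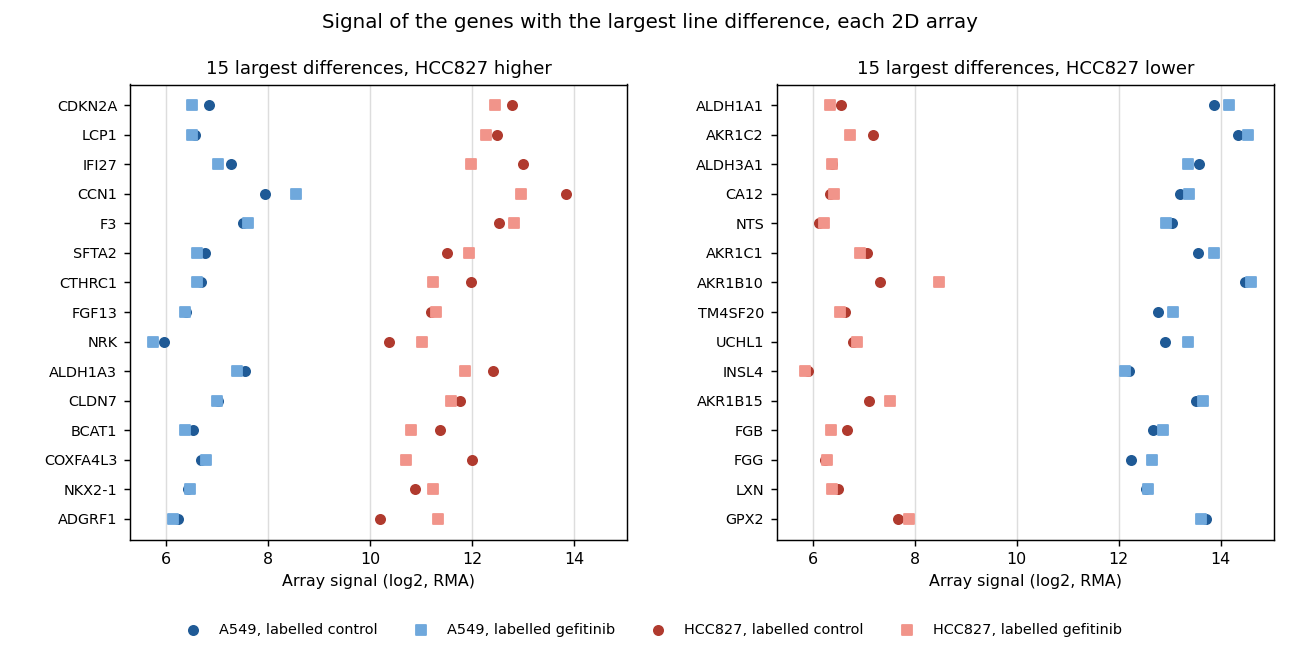
Signal (log2, RMA, horizontal axis) of the 15 genes with the largest difference in each direction, with 1 point per 2D array, coloured by line and shaped by label. In each of the 30 genes both HCC827 points lie on the same side of both A549 points, and the line that is low reads between 5.74 and 8.56.

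Among genes lower in HCC827, ALDH1A1, a retinaldehyde dehydrogenase, stood at 13.87 and 14.17 in A549 and at 6.55 and 6.33 in HCC827, a difference of -7.58 ± 0.16 (adjusted p = 4.7e-07). AKR1C2, an aldo-keto reductase of steroid and carbonyl metabolism, stood at 14.34 and 14.55 against 7.19 and 6.74 (-7.48 ± 0.20). ALDH3A1, an aldehyde-detoxifying enzyme, gave -7.09 ± 0.14, the membrane carbonic anhydrase CA12 -6.91 ± 0.21 and the peptide hormone precursor NTS (neurotensin) -6.81 ± 0.16. The next were AKR1C1 (-6.73), AKR1B10 (-6.64), TM4SF20 (-6.33), the neuronal ubiquitin hydrolase UCHL1 (-6.30), the relaxin-family peptide INSL4 (-6.29), AKR1B15 (-6.28), the fibrinogen chains FGB (-6.26) and FGG (-6.19), LXN (-6.12) and the selenium-containing peroxidase GPX2 (-5.89). In all 30 genes every probe set of the gene was apart in the same direction, although 7 of them have 1 probe set. The largest adjusted p among the 30 was 0.00025.

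Enzymes that detoxify carbonyls and aldehydes were lower in HCC827. Of 8 tested aldo-keto reductases 7 were lower and 0 higher, with a median difference of -5.48. Over all tested genes the median was 0.00, and 19.3% were called lower and 19.2% higher. AKR1B10 reached 14.47 and 14.60 in A549 against 7.31 and 8.48 in HCC827, and AKR1C3, a prostaglandin and steroid reductase, 14.12 and 14.33 against 9.70 and 9.39 (-4.68 ± 0.16). AKR1C1, AKR1C2, AKR1C3 and AKR1C4 are near-identical in sequence, as are AKR1B10 and AKR1B15, so their probe sets may share signal and their separate values are uncertain. Of 14 tested aldehyde dehydrogenases 11 were lower, 1 was higher and the median was -0.86. The mitochondrial ALDH2, which clears acetaldehyde, was at 12.04 and 11.98 in A549 and 9.32 and 9.43 in HCC827 (-2.64 ± 0.23), ALDH3B1 differed by -2.74 ± 0.33 and ALDH3A2, a fatty aldehyde dehydrogenase, by -1.93 ± 0.27. The member that went the other way was ALDH1A3, which also makes retinoic acid: 7.54 and 7.39 in A549 and 12.41 and 11.86 in HCC827 (4.67 ± 0.45, adjusted p = 0.000211). The lines thus held opposite retinaldehyde dehydrogenases, ALDH1A1 in A549 and ALDH1A3 in HCC827, with no overlap of arrays in either gene.

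NRF2 targets, the genes of glutathione, thioredoxin and NADPH supply, were lower as a group. Of 26 tested, 22 were lower and 0 higher (0 higher also at an unadjusted limma p under 0.05), and the median difference was -1.58. Over all tested genes 19.3% were called lower. In 25 of the list both HCC827 arrays lay below both A549 arrays, which held for 36.0% of all tested genes. GPX2 stood at 13.72 and 13.62 in A549 and at 7.68 and 7.88 in HCC827 (-5.89 ± 0.18). The export pump ABCC2 was at 11.87 and 12.23 against 7.21 and 8.05 (-4.42 ± 0.36), and the quinone reductase NQO1 at 13.63 and 13.88 against 9.86 and 10.28 (-3.69 ± 0.20, 12.9-fold lower). PGD of the pentose phosphate pathway (-3.20 ± 0.22), the cystine carrier SLC7A11 (-2.67 ± 0.18) and the export pump ABCC3 (-2.58 ± 0.13) were also lower. The RNAs of the regulators themselves did not pass the threshold: NFE2L2, which encodes NRF2, read 11.37 and 11.70 in A549 and 12.01 and 11.50 in HCC827 (0.22 ± 0.22, adjusted p = 0.472), and KEAP1 9.69 and 9.81 against 9.83 and 9.67 (0.00 ± 0.13, adjusted p = 0.995).

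NRF2 binds the antioxidant response element, and its core TGACNNNGC was sought on both strands in the 250 bases before each start site in RefSeq (GRCh38.p14). The core was found in 8 of 20 NRF2 targets with a listed promoter (40%), against 15.7% of the 9807 tested genes with one and 13.2% of all 27305 promoters. It was in 15.9% of the promoters of genes called higher, 16.6% of those called lower and 15.3% of the rest. It was found in 2 of the named targets, whose promoters are shown because their genes were among the most different of the list, with the core in capitals and 25 bases on either side, 5′ to 3′ in the direction of the gene. That of GPX2 lies at chr14:64942834-64942892 on the - strand and that of PGD at chr1:10398838-10398896 on the + strand.
GPX2: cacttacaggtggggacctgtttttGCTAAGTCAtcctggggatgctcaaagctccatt
PGD: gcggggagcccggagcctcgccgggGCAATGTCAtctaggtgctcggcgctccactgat
In both the core reads on the opposite strand. A match is a match of letters and no more. The aldo-keto reductases held it in 1 of 6 promoters and the aldehyde dehydrogenases in 0 of 11.

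Of 32 other xenobiotic enzymes and transporters 17 were lower and 3 higher (median -0.80), 62.5% called against 38.5% of all tested genes. They included the vitamin D hydroxylase CYP24A1, at 12.04 and 12.17 in A549 and 7.41 and 8.34 in HCC827 (-4.24 ± 0.61), the carboxylesterase CES1 (-3.20 ± 0.23), the fatty acid hydroxylases CYP4F3 (-2.73 ± 0.21) and CYP4F11 (-2.58 ± 0.11), the drug-metabolising CYP3A5 (-2.32 ± 0.13) and the glutathione transferase GSTA4 (-2.11 ± 0.16). Each of these 6 had both HCC827 arrays below both A549 arrays.

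Genes reported to be high in lung cancers without LKB1 function, together with targets of the cAMP-responsive CREB pathway that LKB1 restrains were lower in HCC827. Of 19 tested, 18 were lower and 0 higher (0 also at an unadjusted limma p under 0.05), and the median was -2.14. Among all tested genes 19.3% were called lower. The count and median describe the tested members only. INSL4, CPS1, TESC, TFF1 and PDE4D read below the array median on both HCC827 arrays, so in 2D only their A549 arrays cleared it. Some members, such as FGA and TFF1, are also counted in other lists. INSL4 stood at 12.21 and 12.13 in A549 and at 5.91 and 5.86 in HCC827 (-6.29 ± 0.15). CPS1, the first enzyme of the urea cycle, stood at 11.92 and 12.18 against 6.35 and 6.16 (-5.80 ± 0.14), and the calcium-binding TESC at 11.73 and 11.41 against 6.10 and 6.20 (-5.42 ± 0.17). TFF1, a mucosal trefoil peptide, differed by -4.28 ± 0.41, and the cAMP phosphodiesterase PDE4D by -3.65 ± 0.18 with all 7 of its probe sets lower. STK11 RNA itself read 8.01 and 8.04 in A549 and 8.35 and 8.17 in HCC827, without overlap but not called (0.24 ± 0.12, adjusted p = 0.147).

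Genes of plasma proteins that the liver makes were also lower. Of 36 measured, 22 passed the filter and were tested. Of these 15 were lower and 1 higher, with a median of -1.40. Among all tested genes 19.3% were called lower and 19.2% higher. Members low in both lines do not pass the filter, so the count and median describe the tested members only. FGA, FGB, FGG, FGL1, RBP4 and CP read below the array median on both HCC827 arrays, so in 2D only their A549 arrays cleared it. The 3 fibrinogen chains moved together: FGA stood at 12.46 and 12.86 in A549 and 7.01 and 6.77 in HCC827 (-5.77 ± 0.19), FGB at 12.68 and 12.87 against 6.67 and 6.36, and FGG at 12.24 and 12.66 against 6.24 and 6.27. The fibrinogen-like FGL1 (-5.13 ± 0.17), the retinol carrier RBP4 (-5.11 ± 0.16) and the copper oxidase CP (-4.16 ± 0.42) were lower too. The member that went the other way was SERPINA1, the elastase inhibitor alpha-1-antitrypsin, at 7.50 and 7.34 in A549 and 10.33 and 10.21 in HCC827 (2.85 ± 0.32, adjusted p = 0.000452). Of 12 complement genes 7 were lower and 0 higher (0 higher also unadjusted, limma), with a median of -2.05, among them C5 (-4.50 ± 0.20), C3 (-4.48 ± 0.25), CFD (-4.31 ± 0.24) and C1S (-2.83 ± 0.44). CLU, an extracellular chaperone, read 12.12 and 12.16 in A549 and 9.90 and 8.01 in HCC827, so its HCC827 arrays were themselves 1.9 apart. The other CLU probe set gave a difference of 0.01. CD55, a cell-surface inhibitor of complement, had 6 probe sets lower and 1 higher. Among 8 transcription factors of gut and liver, CEBPA (-2.12 ± 0.12), SOX9 (-1.86 ± 0.36) and FOXA3 (-1.78 ± 0.15) were lower and HNF4G was higher (1.47 ± 0.19).

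**Figure D2:**
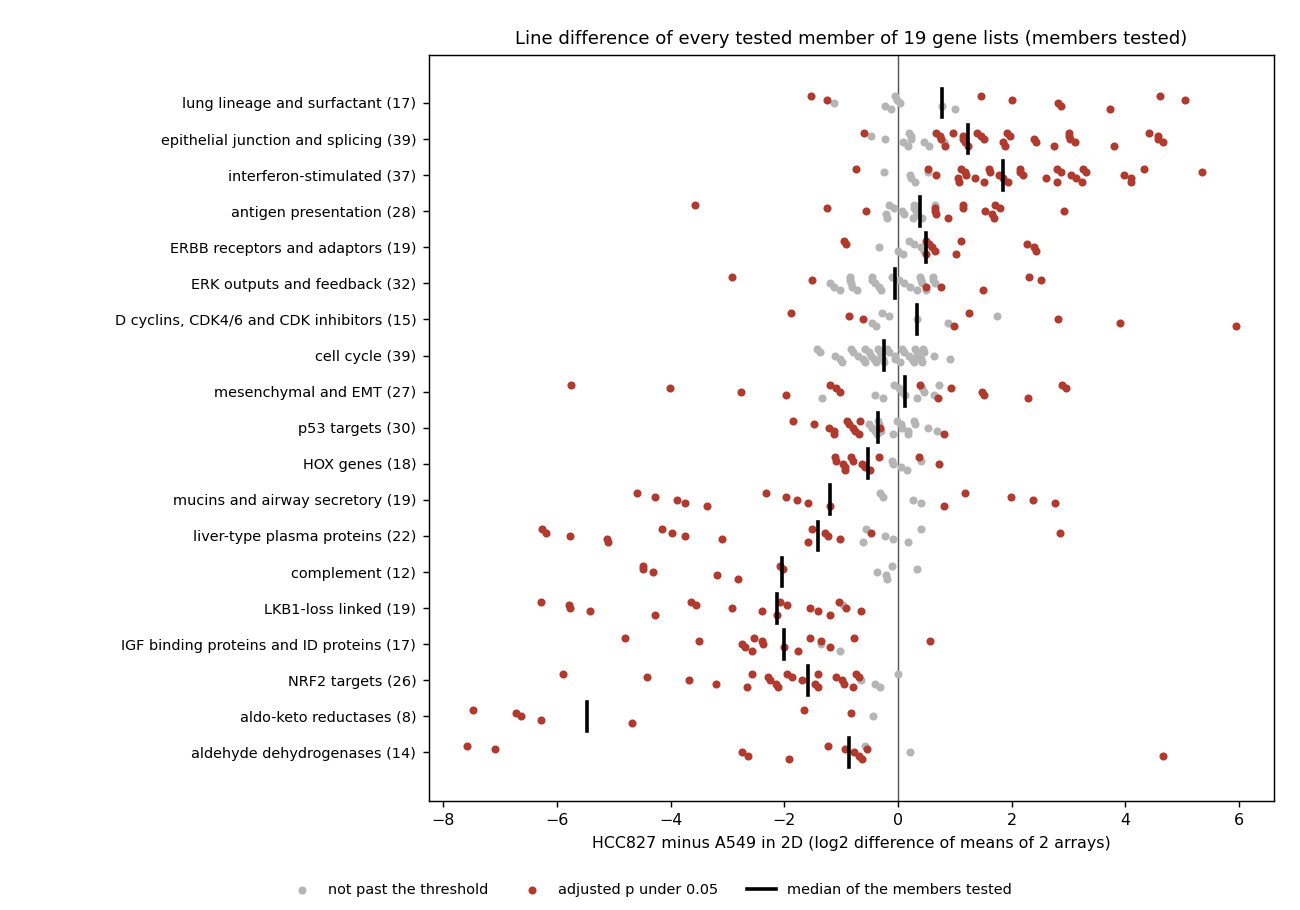
Line difference in 2D (log2, horizontal axis) of every tested member of 19 gene lists, with 1 point per gene and the number tested in brackets; red points passed adjusted p 0.05 and the bar is the list's median. Medians run from -5.48 for the aldo-keto reductases to 1.85 for the interferon-stimulated genes, and the 39 cell cycle genes have no red point.

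Genes of the distal lung lineage pointed the other way. Of 17 tested, 7 were higher in HCC827 and 2 lower (median 0.77), 52.9% called against 38.5% of all tested genes. NKX2-1 stood at 6.43 and 6.47 in A549 and at 10.88 and 11.23 in HCC827 (4.60 ± 0.18, adjusted p = 2.85e-06). SFTA2 stood at 6.76 and 6.61 against 11.52 and 11.94, SFTA3, which lies beside NKX2-1, at 6.04 and 6.17 against 9.41 and 10.27 (3.74 ± 0.30), and the aspartic protease NAPSA, which processes surfactant protein B, at 7.79 and 7.98 against 10.78 and 10.73 (2.87 ± 0.21). The lysosomal protein LAMP3 of surfactant-storing cells (2.82 ± 0.34) and the alveolar HOPX (2.00 ± 0.49) were also higher, HOPX losing the call under 3 of 17 alternatives. Of the 23 measured members, 17 passed the filter and were tested, and the count and median describe these only. NKX2-1, SFTA2, SFTA3, LAMP3 and HOPX read below the array median on both A549 arrays, so in 2D only their HCC827 arrays cleared it. The endoderm factor FOXA2 (-1.24) and the lipid transporter ABCA3 (-1.53) were the members called lower.

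Epithelial junction genes and their regulators were higher in HCC827: 28 of 39 tested were called higher and 1 lower, and the median was 1.22. Among all tested genes 19.2% were called higher and 19.3% lower. The claudins of tight junctions led. CLDN7 stood at 7.02 and 7.01 in A549 and at 11.77 and 11.59 in HCC827 (4.67 ± 0.18), and CLDN4 at 7.67 and 7.83 against 12.79 and 11.86 (4.57 ± 0.29). The cadherin CDH3 (4.57 ± 0.25), the epithelial splicing regulator ESRP1 (4.42 ± 0.22), the membrane protease ST14 (3.80 ± 0.17) and the desmosomal cadherin DSC2 (3.11 ± 0.29, all 6 probe sets) were higher too, as was EPCAM, a surface adhesion protein of epithelia, from 9.74 and 9.77 to 12.70 and 12.82 (3.01 ± 0.19). The difference was smaller for CDH1, the cadherin of adherens junctions, which A549 expressed at 11.17 and 11.48 and HCC827 at 12.57 and 12.37 (1.14 ± 0.18, adjusted p = 0.00223).

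Mesenchymal genes did not show the reverse. In either direction 55.6% of them were called, against 38.5% of all tested genes. Of 27 tested, 8 were higher and 7 lower, with a median of 0.13, and without the A549 2D control array 3 were higher. S100A4, a calcium-binding protein of motile cells, stood at 13.56 and 13.52 in A549 and 7.62 and 7.94 in HCC827 (-5.76 ± 0.16), and the collagen COL5A2 (-4.01 ± 0.17, all 6 probe sets) and the receptor kinase AXL (-2.76 ± 0.22) were lower. SNAI2, a repressor of epithelial genes, was at 6.68 and 6.78 in A549 and 10.52 and 8.85 in HCC827 (2.95 ± 0.51), and the matrix protein SPARC was higher by 2.28 ± 0.27. The matrix protein TNC was called (2.89 ± 0.81, adjusted p = 0.0255) but missed the threshold under 6 of 18 alternative settings, with adjusted p from 0.000873 to 0.11. The intermediate filament VIM read 12.75 and 13.24 in A549 and 12.60 and 10.71 in HCC827; it was without overlap but not called in 2D (-1.34 ± 0.53, adjusted p = 0.0815).

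Secretory products of the airway were mixed. Of 19 tested, 10 were lower and 5 higher (median -1.19), 78.9% called against 38.5% of all tested genes. The secretory chaperone AGR2 stood at 13.69 and 13.61 in A549 and 8.17 and 9.95 in HCC827 (-4.59 ± 0.59; 3 of its 4 probe sets lower, 1 higher), the gel-forming mucin MUC5B at 11.59 and 10.52 against 7.38 and 7.25 (-3.74 ± 0.55) and the protease inhibitor SLPI at 12.47 and 12.28 against 9.19 and 8.85 (-3.36 ± 0.23). The mucins called higher were MUC16, MUC4, MUC1 and MUC20, and MUC5B and MUC13 were lower (MUC13 and MUC20 are named after their values were seen). MUC16 was at 7.19 and 7.53 in A549 and 10.16 and 10.09 in HCC827 (2.77 ± 0.18), MUC4 at 6.09 and 6.19 against 8.67 and 8.36 (2.38 ± 0.13, with its other probe set at -0.01), and MUC1 was higher by 1.18 ± 0.19 with 11 of 13 probe sets higher and 1 lower. Of 14 keratin and CEACAM genes 5 were lower and 4 higher (64.3% called). The adhesion glycoproteins CEACAM5 (-4.19 ± 0.34), CEACAM6 (-3.80 ± 0.38) and CEACAM7 (-3.12 ± 0.20) were lower, and the keratins KRT80 (2.14 ± 0.42), KRT19 (1.46 ± 0.30) and KRT15 (1.39 ± 0.41) higher; KRT15 missed the threshold under 7 of 18 alternatives. Without the A549 2D control array 1 of this list was higher.

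Interferon-stimulated genes were higher in HCC827; the labels name no interferon treatment. Of 37 tested, 31 were higher and 1 lower, with a median difference of 1.85. Over all tested genes 19.2% were called higher. In 32 of the list both HCC827 arrays lay above both A549 arrays, which held for 36.0% of all tested genes. IFI27 stood at 7.27 and 7.02 in A549 and at a mean of 12.49 in HCC827, with the lower of its arrays at 11.98 (5.34 ± 0.33). The filament-associated IFI44 was at 6.61 and 6.45 against 11.04 and 10.68 (4.33 ± 0.19, all 6 probe sets), the ubiquitin-like modifier ISG15 at 7.99 and 8.13 against 12.67 and 11.67 (4.11 ± 0.29), and the guanylate-binding protein GBP1 at 6.84 and 7.13 against 11.68 and 10.51 (4.11 ± 0.36). The antiviral GTPase MX1 gave 6.19 and 6.37 against 11.05 and 9.47 (3.98 ± 0.44) and IFI44L 6.67 and 6.56 against 10.77 and 9.07 (3.31 ± 0.51). In HCC827 all 37 read lower in the array labelled gefitinib than in that labelled control, by a median of 0.72, but in these 6 genes even the lower HCC827 array stood well above both A549 arrays. The called gene on the lower side was the exonuclease ISG20 (-0.75), named after its value was seen.

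The interferon-stimulated response element, bound by the factors that interferon activates, was sought by its core GAAANNGAAA on both strands of the 250 bases before the start site. Of the 30 tested list members with a listed promoter 22 held it (73.3%), against 3.16% of tested genes with a promoter and 3.71% of all promoters. The share was 4.34% among genes called higher, 2.78% among those called lower and 2.90% among the rest. All 6 genes named above hold it, and the stretch around it is shown for each, 5′ to 3′ in the direction of the gene, with every copy of the core in capitals. They lie, in GRCh38.p14, at chr14:94110616-94110675 (+ strand, IFI27), chr1:78649746-78649788 (+, IFI44), chr1:1013365-1013424 (+, ISG15), chr1:89065301-89065360 (-, GBP1), chr21:41431829-41431888 (+, MX1) and chr1:78620350-78620409 (+, IFI44L).
IFI27: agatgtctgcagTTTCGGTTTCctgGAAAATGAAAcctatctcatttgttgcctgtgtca
IFI44: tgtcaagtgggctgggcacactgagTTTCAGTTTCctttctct
ISG15: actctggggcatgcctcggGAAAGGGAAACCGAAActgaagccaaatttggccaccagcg
GBP1: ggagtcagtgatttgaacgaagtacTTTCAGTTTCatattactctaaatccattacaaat
MX1: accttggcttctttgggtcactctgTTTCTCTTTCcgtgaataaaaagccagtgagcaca
IFI44L: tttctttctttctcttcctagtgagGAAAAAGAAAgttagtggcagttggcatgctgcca
IFI27 and ISG15 hold 2 copies in the stretch shown, which overlap in ISG15, and the copies run on either strand. The element was chosen because the list is defined by response to interferon, so its presence describes the list and not the line difference.

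Antigen presentation genes, many of which interferon also induces, were higher less uniformly: of 28 tested, 12 were higher and 3 lower (median 0.38). The share called was 53.6%, against 38.5% of all tested genes. The class I heavy chain HLA-B stood at 9.83 and 10.04 in A549 and 12.99 and 12.72 in HCC827 (2.92 ± 0.16, 7.58-fold), HLA-C was higher by 1.66 ± 0.20 and HLA-F by 1.69 ± 0.22, although HLA probe sets can share signal and HLA-F had 5 probe sets higher, 1 lower and the others overlapping. The stress ligand MICB (1.79 ± 0.22) and the immunoproteasome subunit PSMB9 (1.71 ± 0.14, with 2 of 3 probe sets higher) were higher. HLA-DMB, which loads peptides on class II molecules, went the other way, at 11.16 and 10.48 in A549 and 7.26 and 7.23 in HCC827 (-3.58 ± 0.21). Of 26 chemokine and cytokine genes 6 were higher and 3 lower, a share called of 34.6% against 38.5% of all tested genes. The neutrophil chemokine CXCL6 (2.92 ± 0.50), the acute-phase SAA1 (2.55 ± 0.45) and the NF-kappaB inhibitor TNFAIP3 (2.38 ± 0.34) were higher, and the cytokine IL18 was lower (-2.55 ± 0.37). Without the A549 2D gefitinib array 1 was lower, without the HCC827 2D gefitinib array 10 were higher, and without the HCC827 2D control array 6 were lower. CXCL5 (-2.25 ± 0.71) and IL6 (1.59 ± 0.49) were called, but their HCC827 arrays lay far apart, at 11.09 and 8.49 for CXCL5 and 9.09 and 7.25 for IL6, and the call was lost under 7 of 18 and 6 of 16 alternatives.

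EGFR stood at 8.21 and 8.36 in A549 and at 10.40 and 10.96 in HCC827, a difference of 2.39 ± 0.24 (5.26-fold, adjusted p = 0.000256). Of its 8 probe sets 6 were higher and 2 lower; the differences over the probe sets ran from -0.21 to 2.39, and the largest belongs to the probe set used. The next tested genes along the chromosome differed by as much: LANCL2 stood at 8.40 and 8.47 in A549 and 10.70 and 11.04 in HCC827 (2.43 ± 0.16), and VOPP1 at 10.85 and 10.93 against 13.39 and 12.93 (2.27 ± 0.21). MRPS17, a mitochondrial ribosomal protein one gene further, was higher by 1.10 ± 0.14. On the other side COBL (0.07) and GRB10 (0.42) were not called. Further out on that side UPP1 (1.92), FIGNL1 (1.10) and HUS1 (0.55) were called higher and DDC (-0.60) lower. Beyond MRPS17, NIPSNAP2 (0.35) and PSPH (0.52) were not called and CCT6A (0.73) was called higher. Gene order is that of RefSeq, and coordinates of the array's build were not used here.

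**Figure D3:**
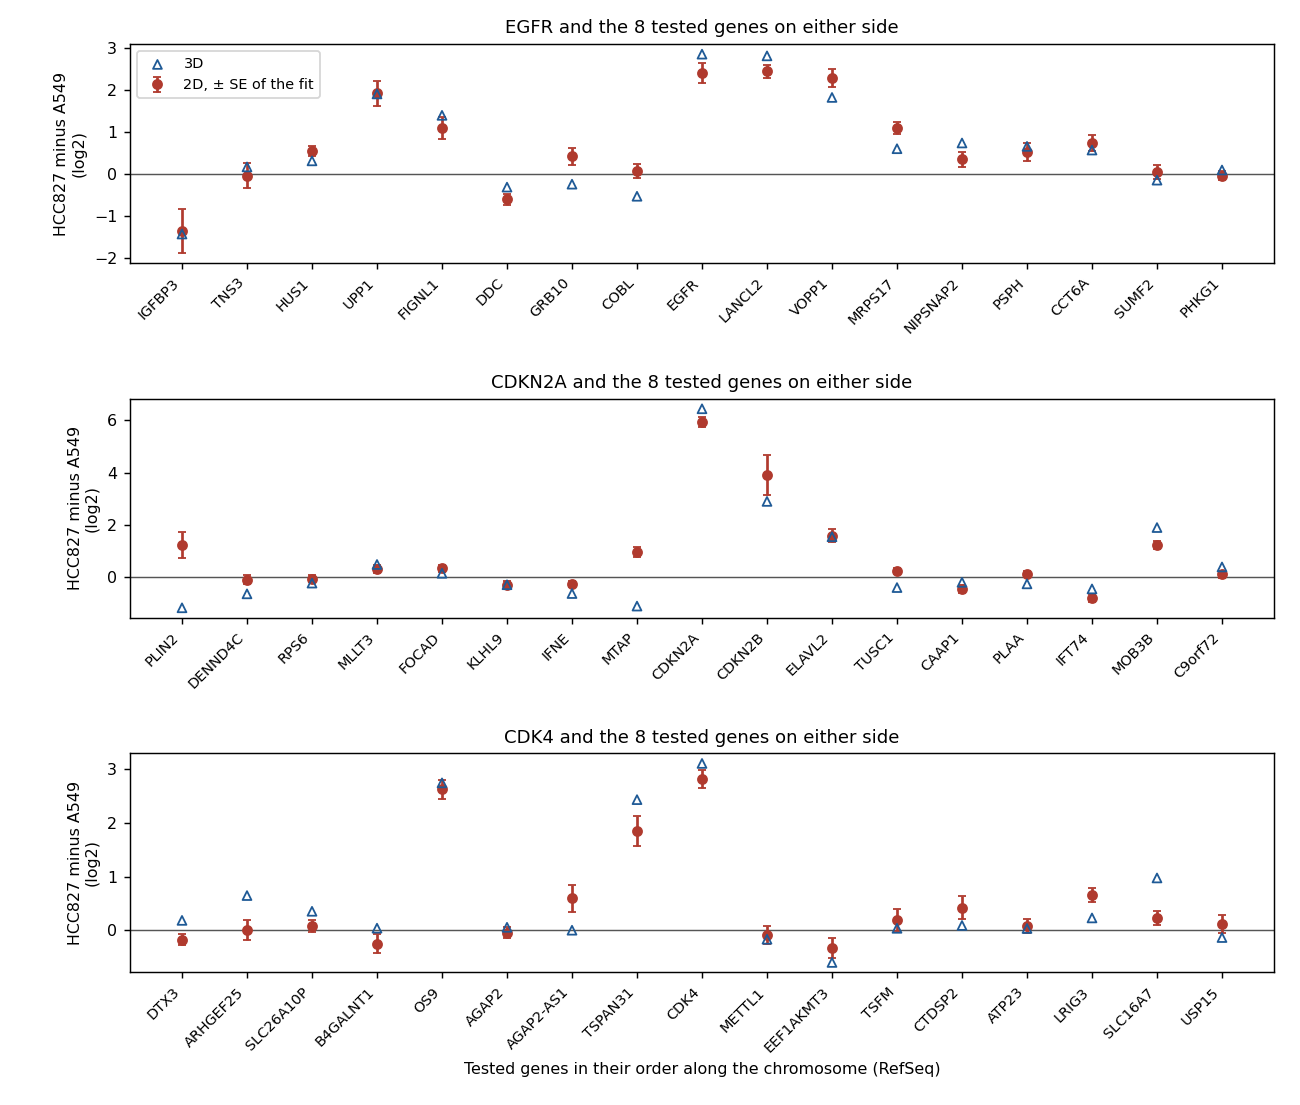
Line difference (log2, vertical axis) of EGFR, CDKN2A and CDK4 and of the 8 tested genes on either side of each, in chromosomal order; filled points with bars are 2D ± SE of the fit and open triangles 3D. EGFR, LANCL2 and VOPP1 stand together near 2.3 to 2.4 in 2D, CDKN2A and CDKN2B stand above their neighbours, and around CDK4 high and unshifted genes alternate.

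The list of receptors and adaptors that holds EGFR and these neighbours had 10 of 19 tested genes higher and 2 lower (63.2% called), and without the A549 2D control array 6 were higher. Its other 14 tested members, without EGFR and 4 neighbours, had 6 higher and 2 lower, with a median of 0.37. Among all tested genes 38.5% were called in either direction. The ubiquitin ligase CBLC, which marks active receptors for degradation, was higher by 1.01 ± 0.09 and the receptor inhibitor LRIG1 lower by 0.95 on the log2 scale. Of 8 ligands and shedding genes 2 were higher and 3 lower, and without the A549 2D gefitinib array 0 were higher and 1 lower. The ligand BTC was higher by 0.56 ± 0.11; EREG was called at 1.56 ± 0.47, from 8.73 and 8.45 to 9.70 and 10.59, but lost the call under 8 of 18 alternatives. NRG4 (-1.24 ± 0.09) and NRG1 (-0.86 ± 0.25), ligands of the related ERBB receptors, and the shedding protease ADAM10 (-0.57 ± 0.14) were lower; NRG1 lost the call under 5 of 18 alternatives and ADAM10 under 2.

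Outputs of ERK, downstream of the receptor, had few called genes. Of 32 tested, 5 were higher and 2 lower, and the median was -0.05. The share called was 21.9%, against 38.5% of all tested genes. In HCC827 24 of the 32 read higher in the array labelled gefitinib, with a median of 0.72 over the list. For 7 of them both A549 arrays lay between the HCC827 arrays. The distance between the HCC827 arrays is part of the spread used by the test. A low share called therefore does not show that the lines are alike in these genes. Without the A549 2D gefitinib array 1 was higher, without the A549 2D control array 1 was lower, and without the HCC827 2D gefitinib array 8 were lower. DUSP6, an ERK phosphatase, read 9.48 and 9.02 in A549, between the HCC827 values of 6.57 and 10.21 (-0.85 ± 1.28, adjusted p = 0.643). The transcription factor ETV5 read 9.50 and 9.19 against 6.95 and 9.47 (-1.13 ± 0.81, adjusted p = 0.316) and the feedback inhibitor SPRY4 7.46 and 7.32 against 6.68 and 7.29 (-0.41 ± 0.27). In DUSP6 the HCC827 arrays lay on either side of A549, and in all 3 the distance between them was larger than the line difference. DUSP4, a nuclear phosphatase of ERK, was without overlap, at 11.07 and 10.87 in A549 and 7.80 and 8.31 in HCC827 (-2.92 ± 0.38, adjusted p = 0.000813), and MYC, a growth-promoting transcription factor, was higher by 1.50 ± 0.27. HMGA2, EGR1 and ETV4 were called with adjusted p from 0.04 to 0.0498 and lost the call under 9, 9 and 10 of 18 alternatives. Of 25 other receptor tyrosine kinases 6 were higher and 5 lower. This share of 44% is near the 38.5% of all tested genes. FGFR4 (-1.74 ± 0.20, 6 of 7 probe sets) and NTRK3 (-1.67 ± 0.11) were lower and MERTK (1.57 ± 0.22) and PTK7 (1.53 ± 0.14) higher.

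Beside CDKN2A, its neighbour CDKN2B, which encodes the related inhibitor p15, stood at 6.03 and 5.87 in A549 and 10.89 and 8.81 in HCC827 (3.90 ± 0.76, adjusted p = 0.00569). MTAP, the enzyme of methionine salvage on the other side of CDKN2A, was higher by 0.98 ± 0.20 in 2D, with 5 of 6 probe sets higher and 1 lower and differences from -0.25 to 2.94. Beyond them ELAVL2 was higher by 1.59, whereas KLHL9 (-0.28), IFNE (-0.25) and TUSC1 (0.24) were not called. The kinase that p16 inhibits was also higher: CDK4 stood at 10.97 and 11.14 in A549 and 13.93 and 13.81 in HCC827 (2.82 ± 0.17, 7.04-fold, all 4 probe sets). Its neighbours were examined after this value was seen. OS9 was higher by 2.62 ± 0.17 and TSPAN31 by 1.84 ± 0.28, with AGAP2 (-0.05) between them and METTL1 (-0.09) and TSFM (0.19) just beyond not called. The related kinase CDK6 was higher by 1.24 ± 0.30. The cyclin CCND3 was lower, at 11.10 and 10.98 in A549 and 8.93 and 9.37 in HCC827 (-1.89 ± 0.22, with its other probe set at 0.03). Of the list of D cyclins, their kinases and inhibitors 53.3% were called, against 38.5% of all tested genes. In all 5 of 15 genes of this list were higher and 3 lower; without the A549 2D control array 1 was lower.

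Targets of p53, which arrest the cycle or repair DNA, were called in either direction at a share of 43.3%, against 38.5% of all tested genes. The calls were mostly on the lower side: of 30 tested, 12 were lower and 1 higher, with a median of -0.36. Among all tested genes 19.3% were called lower and 19.2% higher. Without the A549 2D control array 6 were lower and 0 higher. Those called lower included RPS27L (-1.86 ± 0.25, with its other probe set at -0.02), the actin regulator CYFIP2 (-1.47 ± 0.19) and the DNA repair factor DDB2 (-1.22 ± 0.31). The oxidoreductase TP53I3 (-1.13 ± 0.18), the stress cytokine GDF15 (-1.12 ± 0.28) and the nuclease AEN (-0.89 ± 0.13) were also lower. DDB2 and GDF15 each lost the call under 3 of 18 alternatives.

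Genes of DNA replication and mitosis gave no called line difference. The distance between the HCC827 arrays is part of the spread used by the test and was large here. The test therefore could not decide whether the lines differ in these genes. Of 39 tested, 0 were called in either direction by limma, 0 also at an unadjusted p under 0.05, and the median was -0.25. For 31 of the 39 both A549 arrays lay between the HCC827 arrays, and all 39 read higher in the HCC827 array labelled gefitinib, by a median of 1.77. The mitotic kinesin KIF2C read 9.37 and 9.37 in A549 and 9.02 and 11.68 in HCC827, the ribonucleotide reductase subunit RRM2 10.24 and 10.09 against 9.15 and 11.56, and the proliferation marker MKI67 9.02 and 8.97 against 7.44 and 9.39. CCND1, a cyclin that ERK induces, followed the same pattern at 11.16 and 10.98 against 9.36 and 11.87. PRC1 (8.22 and 10.56 in HCC827, -1.43 ± 0.77) and PCNA (10.72 and 12.22, -1.37 ± 0.62) had both HCC827 arrays below both A549 arrays and were not called. Without the HCC827 2D control array 6 were called higher, and without the HCC827 2D gefitinib array 11 lower. Over all tested genes, both A549 arrays lay between the HCC827 arrays for 1355 and both HCC827 arrays between the A549 arrays for 313.

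**Figure D4:**
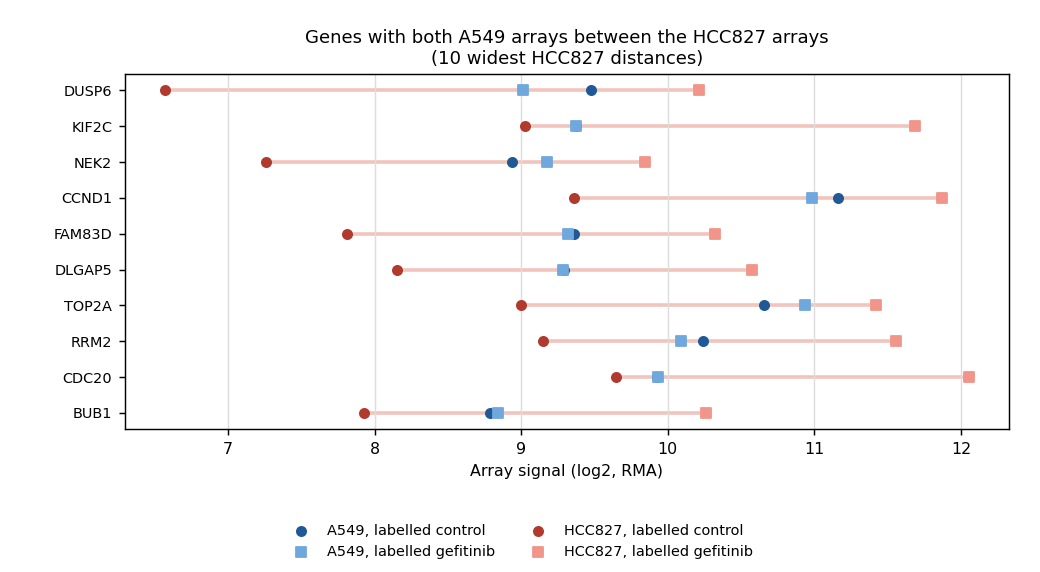
Signal (log2, RMA, horizontal axis) of the 10 genes with the widest distance between the HCC827 arrays among those whose A549 arrays lie between them, with 1 point per 2D array. In all 10 the HCC827 array labelled gefitinib is the highest of the 4 and that labelled control the lowest.

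Growth factor binding proteins and ID proteins, inhibitors of differentiation factors that BMP signalling induces, were lower in HCC827. Of 17 genes of this list 14 were lower and 1 higher (median -2.01). Among all tested genes 19.3% were called lower and 19.2% higher. IGFBP4 stood at 12.08 and 12.14 in A549 and 7.15 and 7.47 in HCC827 (-4.80 ± 0.24). IGFBP7 stood at 10.01 and 10.12 against 6.84 and 6.30 (-3.50 ± 0.17, with 2 of 4 probe sets lower without overlap). ID4 (-2.75 ± 0.34), ID1 (-2.57 ± 0.35), ID3 (-2.53 ± 0.57) and the BMP feedback inhibitor SMAD6 (-2.70 ± 0.17) were lower too. Of 12 carbonic anhydrases and ion transport genes 6 were lower and 1 higher, led by CA12, at 13.20 and 13.37 in A549 and 6.34 and 6.42 in HCC827, with the potassium channel KCNJ16 (-3.20 ± 0.22), CA2 (-3.16 ± 0.17) and the bicarbonate carrier SLC4A4 (-2.20 ± 0.20). Of 13 neuroendocrine and peptide genes 4 were higher and 4 lower: besides NTS and UCHL1, the granule protein CHGB was lower (-3.01 ± 0.13), and the secreted STC2 (3.56 ± 0.42), the neuropeptide GAL (3.09 ± 0.58) and the chaperone SCG5 (2.36 ± 0.32) were higher. Of 18 HOX genes, which record position along the body axis, 11 were lower and 2 higher (median -0.54), with HOXB8 (-1.12 ± 0.29) and HOXD8 (-1.09 ± 0.14) the furthest; without the A549 2D gefitinib array 4 were lower and 0 higher. Of 5 tested cancer-testis antigens CT83 was higher (3.07 ± 0.27) and PRAME lower (-3.04 ± 0.14), 40% called against 38.5% of all tested genes.

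Among 15 integrins 3 were higher and 3 lower, a share of 40.0% that is near the 38.5% of all tested genes: ITGB6, a partner in activating TGF-beta, stood at 6.69 and 7.17 in A549 and 11.05 and 10.04 in HCC827 (3.62 ± 0.38), ITGB8 was higher by 1.99 ± 0.15 and the hemidesmosome subunit ITGB4 lower (-1.34 ± 0.18, all 8 probe sets). Of 12 basement membrane genes 5 were lower and 2 higher, with COL4A6 (-3.98 ± 0.13) and NID2 (-2.82 ± 0.16) lower and LAMB3 higher (2.01 ± 0.29); without the A549 2D control array 1 was higher. Of 25 YAP targets 10 were higher and 5 lower (median 0.44); CCN1 stood at 7.94 and 8.56 in A549 and 13.85 and 12.97 in HCC827, F3 at 7.52 and 7.60 against 12.54 and 12.82, and without the A549 2D control array 4 were higher and 3 lower. In the urokinase and protease list 8 of 23 were higher and 3 lower, 47.8% called against 38.5% of all tested genes. The activator PLAU (1.98 ± 0.24) and the peptidase KLK10 (2.56 ± 0.21) were among those above. KLK10 had 1 probe set higher and 1 lower, the latter at -0.09. The metalloprotease MMP7 (-3.57 ± 0.54, 3 of 4 probe sets lower) and the inhibitor SERPINE2 (-2.08 ± 0.28) were below. The shares called were 58.3% of the basement membrane genes, 60.0% of the YAP targets and 51.9% of the actin-binding genes that follow. These too stand against 38.5% of all tested genes. Among 27 actin-binding genes 11 were higher and 3 lower, 4 being higher without the A549 2D control array; LIMA1 was higher by 2.62 ± 0.27 and the tropomyosin TPM2 lower, at 11.86 and 11.94 in A549 and 8.53 and 7.83 in HCC827 (-3.72 ± 0.22).

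Housekeeping and metabolic groups had few called genes. Of 47 cytosolic ribosomal proteins 4 were higher and 4 lower (median 0.05), with RPL5 at 0.91 ± 0.15; without the A549 2D control array 2 were higher and 2 lower, and without the A549 2D gefitinib array 1 was lower. Of 30 hypoxia and glycolysis genes 3 were higher and 2 lower (median 0.17), among them the angiogenic factor VEGFA (1.84 ± 0.46) and the glycolytic enzyme GPI (-1.92 ± 0.47), each of which lost the call under 3 of 18 alternatives; without the A549 2D control array 0 were called. Of 26 genes of cholesterol and fatty acid synthesis 1 was higher, the sterol desaturase SC5D (1.55 ± 0.14), and 5 lower, including the fatty acid desaturases FADS2 (-1.63 ± 0.19) and FADS1 (-1.41 ± 0.25); without the A549 2D control array 3 were lower, and without the HCC827 2D control array 3 were higher. The shares called in either direction were 17.0%, 16.7% and 23.1%, against 38.5% of all tested genes. In HCC827 25 of 30 hypoxia genes and 20 of 26 cholesterol genes read higher in the array labelled gefitinib, with medians of 0.59 and 0.45. Of the ribosomal genes 3 of 47 did (median -0.19), and over all tested genes the median was -0.05. That distance is part of the spread used by the test. A low share called therefore does not show that the lines are alike in these genes.

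Called genes also lay near each other along some chromosomes. In the 11450 stretches of 21 neighbouring tested genes the middle median difference was 0.01. The highest, centred on GTF2B and running from C1orf52 to ZNF326, had a median of 1.68 in 2D and 1.27 in 3D, with 17 of 21 genes higher and 0 lower; it holds CCN1 and GBP1. A second, centred on DR1 and running from BRDT to CNN3, had a median of 1.35, with 16 higher, and holds F3. The lowest, centred on ANKRD16 and running from KLF6 to ATP5F1C, had a median of -1.15 and 16 genes lower and holds the AKR1C genes. A stretch centred on COG1 had a median of -1.04 with 12 lower. These stretches were picked as extremes and are a description only.

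On the 3D scaffold the same lines were compared in the same way. There 5410 genes were called, 45.4% of those tested, split into 2270 higher and 3140 lower, or 2971 and 2642 after cyclic loess normalization; without the A549 3D control array 3592 were called and without the A549 3D gefitinib array 3452. Across the tested genes the 2D and 3D differences correlated with r = 0.879 and rho = 0.832, as a description over genes, which share their arrays. Of 3575 genes called in both cultures 3563 had the same sign, and of 206 called at least 8-fold in 2D 204 were called with the same sign in 3D. The 3D RNA differed in quality: the 3' minus 5' signal of actin was 1.67 to 2.64 on the 3D arrays and -0.05 to -0.14 on the 2D arrays. The 3D samples also had a different lysis and extraction kit, so culture and RNA preparation cannot be told apart. Within 3D the actin value differed by line as well, at 1.67 and 1.74 in A549 and 2.34 and 2.64 in HCC827. That of GAPDH was 0.55 and 0.54 in A549 and 0.97 and 1.57 in HCC827. Line and RNA quality thus cannot be told apart in the 3D difference, nor in the 2D minus 3D values.

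The line difference itself depended on the culture for 201 genes (limma test of 2D minus 3D, 1.69% of those tested), 103 above 0 and 98 below, of which 36 had opposite signs in the cultures; without the A549 2D gefitinib array this count was 15, without the A549 2D control array 18, without the A549 3D arrays 22 (control) and 20 (gefitinib), without the HCC827 arrays 424 (2D gefitinib) and 710 (3D control). In 139 of the 201 the difference was larger in 3D and in 62 it was larger in 2D. SERPINA1, PKIB, an inhibitor of protein kinase A, and KRTAP2-3, a keratin-associated protein, separated the lines mainly in 2D: PKIB stood at 8.11 and 8.09 in A549 and 11.22 and 11.62 in HCC827 (3.32 ± 0.27, against 0.64 in 3D). TSPAN8, a tetraspanin of secretory epithelia, differed by -3.89 in 2D and -1.16 in 3D, with A549 at 10.83 on both arrays. ID4 was lower in HCC827 in 2D (-2.75) and above A549 in 3D (0.89, not called). Conversely IGFBP5 (-0.77 in 2D, -4.87 in 3D), the angiotensin receptor AGTR1 (-2.38 and -5.40) and the iron carrier TF (-0.57, not called, and -3.24) separated the lines mainly in 3D, as did the immunoglobulin transporter PIGR (0.41, not called, and 3.78) and the mucin MUC4 (2.38 and 5.27). MTAP was higher in HCC827 in 2D by 0.98 and differed by -1.10 in 3D (difference between cultures 2.08, adjusted p = 0.0222).

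**Figure D5:**
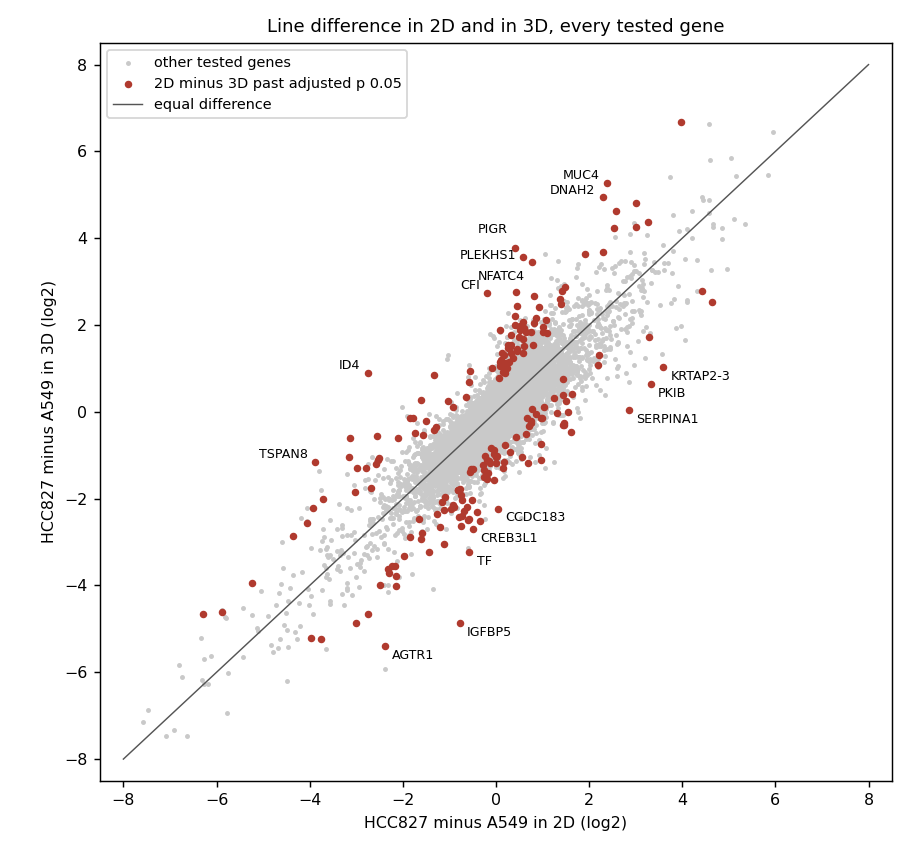
Line difference (HCC827 minus A549, log2) in 2D on the horizontal and in 3D on the vertical axis, with 1 point per tested gene; red points are the 201 genes whose difference changed with culture, 16 of them named, and the line marks equal differences. Most genes lie along the line (r = 0.879).

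At the limit of the criterion of no overlap the differences were small. BRF1, GAGE10 and FUBP3 lay just inside on the higher side, with mean differences of 0.11, 0.13 and 0.09, and CGRRF1, DAZAP1 and UBAP2L just outside, with 0.15, 0.11 and 0.21. On the lower side GNAS, RPL26L1 and PTCD1 lay just inside (-0.20, -0.06 and -0.07) and CACNB3, SGSM3 and TCTA just outside (-0.23, -0.07 and -0.20). None of the 12 was called.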

How the data were processed

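The deposited values are log2 signals of a 3' expression array, deposited by the authors; the submitters' processing notes name RMA and R 3.2.1. RMA subtracts background and equalises the arrays, so a total RNA difference between lines is not measured. Of 49495 probe sets 45284 had 1 gene symbol (45228 matched to RefSeq, GRCh38.p14), 1333 had several and 2782 were not listed. The highest-mean probe set stood for each of 18244 genes, and 11926 above the array median on at least 2 arrays were tested. A gene high in only 1 line can pass this filter and a gene low in both cannot. List counts and medians therefore describe the tested members only. With 1 array per condition, limma 3.58.1 in R 4.3.3 fitted 1 mean per line and culture over all 8 arrays, with a variance trend; the residual (4 degrees of freedom, 3.52 from the prior) is the distance between control and gefitinib arrays. The fit was tested on simulated data. That residual holds any response to gefitinib together with culture and technical spread. Labels do not say that cultures were started independently, so p-values may not measure variation between independent cultures.

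Named genes were the 15 largest called each way without overlap, up to 6 called members of each list (2 where none passed), a fixed set of pathway genes, the 8 largest changes with culture each way, the 10 widest HCC827 distances and the genes at the edge of overlap. The comparison, the lists and the members were chosen with earlier results of these data known. Alternatives changed the filter, the probe set, the normalization, the variance model, a treatment term and the arrays used; counts of list members without each 2D array were added after seeing the data.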

Additional observations from a re-analysis of the deposited data

Results flagged for a closer look

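For 16 named genes the line difference itself depended on the culture, by limma's test of the 2D difference minus the 3D difference. Those above 0 were IGFBP5 (4.09, adjusted p = 0.00258), AGTR1 (3.02, adjusted p = 0.00222), SERPINA1 (2.81, adjusted p = 0.0332), PKIB (2.69), TF (2.67), KRTAP2-3 (2.57), CCDC183 (2.27) and CREB3L1 (2.21). Those below 0 were ID4 (-3.64), PIGR (-3.37), PLEKHS1 (-2.99), CFI (-2.94), MUC4 (-2.89), TSPAN8 (-2.73), NFATC4 (-2.67) and DNAH2 (-2.65). All 16 kept their sign under every alternative that gave a value. The call was lost under 7 of 17 alternatives for SERPINA1, 6 of 17 for DNAH2, 5 of 17 for PKIB, TF, KRTAP2-3 and CFI, 5 of 16 for ID4 and 3 of 16 for CCDC183, and under 0 for the others. The part of the 3D RNA's 3' signal in these values was not tested.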

How the results depend on the processing

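The count of genes called in 2D (4588) ran from 2637, without the A549 2D control array, to 5237, without the HCC827 3D gefitinib array, when 1 array was left out, and was 2700 without the A549 2D gefitinib array; the lone array left is then assumed to vary like the other groups. Other settings gave 3588 to 4829. In 3D the range without 1 array was 3452 to 5804. The count for 2D minus 3D (201) was 56 for genes whose mean lay above the median, 337 with the probe set of largest variance, 22 with treatment as labelled as a term, and 15 to 710 without 1 array. The cause was not tested. Of 224 named genes called in 2D, 179 were past the threshold under every alternative run and 45 were lost under at least 1; the 30 largest were past it under all, with adjusted p up to 0.00407. None of the 224 changed sign under the alternatives run. Of the 4588 genes called in 2D, 22 took the opposite sign with the probe set of largest variance and 6 with the mean of all probe sets, and in 3D cyclic loess turned the balance of calls from 2270 higher and 3140 lower to 2971 and 2642. The labels give no replicate numbers, so arrays could be matched across lines only by treatment label. With treatment as a term 4050 genes were called in 2D as labelled, and 4810 with the HCC827 2D labels exchanged. RMA values carry no detection call: in 1169 of the 4588 called genes the lower line lay below every 2D array median.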
